A study of Homo sapiens with 40 samples.

Results

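The proteasome subunit genes were taken as the protein-coding genes whose symbol is PSMA, PSMB, PSMC, PSMD, PSME, PSMF or PSMG followed by a number. Of the 60708 genes in the count tables, 48 met this rule, and 5 of them, the immunoproteasome genes PSMB8, PSMB9, PSMB10, PSME1 and PSME2, were set apart from the other 43. Enough fragments were counted on 46 of the 48 for a test in every comparison. The other two, PSMA8 and PSMB11, are known from testis and thymus. PSMA8 had no count in 21 of the 24 RNA libraries and at most 3 counts in the rest, and PSMB11 had none in 20 libraries and at most 5 counts.

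RNA was sequenced from MI-spheres and MII-spheres and from MDA-MB-231 cells, with 3 libraries in each of 8 groups, and the labels call the libraries of a group biological replicates. MI-spheres are 3D cultures of MCF-10A, an immortalised and non-tumorigenic human mammary epithelial line, and MII-spheres are 3D cultures of its derivative transformed with HRAS. Both were grown in ultra-low attachment plates, either unstimulated (MI Ctrl, MII Ctrl) or stimulated with TGFβ1 at 2.5 ng/ml for 16 h (MI TGFβ, MII TGFβ). MDA-MB-231, a triple-negative breast cancer line with a mesenchymal phenotype, was grown as a 2D monolayer, and its groups were untreated WT cells, cells labelled SLUG KO, cells given a scramble siRNA (Csi), and cells given siRNAs against SMAD2, SMAD3 and SMAD4 together (siSMAD2/3/4). SLUG KO cells were made with Cas9 ribonucleoprotein and 1 guide near the beginning of exon 1 of SNAI2, the gene of the transcription factor SLUG, and were then sorted and expanded from single-cell colonies. The number of clones behind the libraries is not given in the sources used here. The siRNA transfections were transient.

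The proteasome is the main protease of the cytosol and nucleus and degrades proteins that carry ubiquitin chains. Its 20S core is a barrel of stacked α and β rings, encoded by PSMA and PSMB genes, with the proteolytic sites on the β subunits PSMB5 (chymotrypsin-like), PSMB6 (caspase-like) and PSMB7 (trypsin-like). The 19S regulatory particle caps the core, binds and unfolds substrates with its PSMC ATPases, and holds the PSMD subunits that recognise and remove ubiquitin. Interferon-γ is known to induce PSMB8, PSMB9 and PSMB10, which replace PSMB5, PSMB6 and PSMB7 in newly built immunoproteasomes, and PSME1 and PSME2, which form the PA28 activator of the core. Subunits of the standard particle are known to be made in matched amounts, with NFE2L1 (NRF1) as the transcription factor that raises their genes together when proteasome activity falls.

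The promoters of 4 of the 5 immunoproteasome genes carry a sequence that most other subunit genes searched lack. It is printed here because the immunoproteasome genes are described apart from the standard subunits in the results that follow. RefSeq promoters of GRCh38.p14, each reaching from 250 bases before to 50 bases after a start site, were found for 42 of the 48 genes, giving 51 promoters of 300 bases. They were searched on both strands for GAAANNGAAA, the spaced pair of GAAA letters at the centre of interferon-stimulated response elements. It occurred in 7 of the 51 promoters (13.7%), against 1255 of all 35116 RefSeq promoters of this length (3.57%). The 7 belonged to PSMB8, PSMB10, PSME1 and PSME2, 4 of the 5 immunoproteasome genes, and to PSMG4, PSMA4 and PSMB4. The promoter of PSMB9 did not hold these letters. Each is shown as a window of 30 bases, 5′ to 3′ on the strand that reads GAAANNGAAA, with the match in capitals.
PSMB8: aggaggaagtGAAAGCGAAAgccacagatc
PSMB10: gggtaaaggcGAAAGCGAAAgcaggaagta
PSME1: accgcgaaggGAAAGCGAAAgcggtagggc
PSME2: cctggggagtGAAAGCGAAAgcccgggcga
PSMG4: ttccggggccGAAAGCGAAAgcgcgctcgg
PSMA4: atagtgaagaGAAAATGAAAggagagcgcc
PSMB4: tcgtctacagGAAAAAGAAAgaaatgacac

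The windows lay at chr6:32844032-32844061 (PSMB8, plus strand printed), chr16:67936852-67936881 (PSMB10, minus), chr14:24136189-24136218 (PSME1, minus), chr14:24146619-24146648 (PSME2, minus), chr6:3258904-3258933 (PSMG4, plus), chr15:78540155-78540184 (PSMA4, plus) and chr1:151399495-151399524 (PSMB4, plus). In GENCODE, the windows of PSMB8 and PSME1 touched an untranslated part of an exon of the canonical transcript. Those of PSMB10, PSME2 and PSMG4 touched exons of other transcripts only, and those of PSMA4 and PSMB4 lay upstream of the gene. The 12 letters GAAAGCGAAAGC were shared by the windows of the 4 immunoproteasome genes and PSMG4. That run was picked after the windows had been seen, and 17 of the 35116 promoters (0.0484%) hold it. The antioxidant response element letters TGACNNNGC, which fit the kind of site bound by NFE2L1, occurred in 15 of the 51 promoters (29.4%) against 13.3% of all promoters, and CCAAT in 20 (39.2%) against 34.6%. No match of 1 motif overlapped a match of another. A match of letters is a description of the promoter and not a bound site.

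Between 14124688 and 38406952 fragments were counted on genes per library. Expression is given as CPM, counts rescaled to the size of the library with edgeR's TMM factors, and a gene is called higher or lower where edgeR's quasi-likelihood test gave a p under 0.05 after adjustment by Benjamini and Hochberg's method for every gene in the fit. The labels were checked first. HRAS stood at 38.7 to 40.4 CPM in MI Ctrl and at 213 to 219 CPM in MII Ctrl, and siSMAD2/3/4 lowered SMAD2 from 89.0 to 93.1 CPM in Csi to 23.4 to 24.4 CPM. SNAI2 mRNA was at 61.4 to 67.3 CPM in the libraries labelled SLUG KO and at 22.4 to 35.2 CPM in WT, so the transcript level went against the label. An edit at the beginning of the coding sequence need not lower the mRNA, which therefore does not check this label. The authors state that they checked the knockout clones by ddPCR and immunoblotting. Spheres expressed the epithelial gene CDH1 (506 to 713 CPM) and little VIM (1.55 to 10.6 CPM), and MDA-MB-231 libraries the reverse (CDH1 0.801 to 19.2 CPM, VIM 610 to 1049 CPM). KRT5, a basal keratin of MCF-10A, was at 0 to 0.239 CPM in MDA-MB-231 and at 17.9 to 561 CPM in spheres. EPCAM (57.75 to 296.5 CPM against 11.7 to 22.34 CPM) and KRT14 (1.47 to 26.9 CPM against 0 to 0.940 CPM) were also higher in spheres. TP63 was at 47.6 to 85.5 CPM in MI-spheres. In MII-spheres it was only at 0.461 to 2.78 CPM, against 1.07 to 4.73 CPM in MDA-MB-231. The leukocyte genes PTPRC, CD3E, MS4A1 and CD68 stayed at or below 0.581 CPM in every library. WT replicate 2 stood apart from the other two WT libraries (Pearson's r of log2 CPM 0.976 and 0.972, against 0.997 or more for every other pair of replicates), and SLUG KO results are given with and without it.

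On the TMM scale TGFβ raised the proteasome genes in both sphere lines. In MI-spheres 30 of the 46 tested members were called higher and 5 lower, where 28.7% of all 16863 genes tested were called higher and 27.4% lower. In MII-spheres 39 members were called higher and 1 lower, against 29.9% and 27.6% of 16396 genes. The median log2 fold-change of the members was 0.19 in MI and 0.36 in MII, beside -0.02 for all genes in each line. No called member passed an absolute log2 fold-change of 1, as 13.6% of all genes did in MI and 10.6% in MII, so the response was broad and shallow. The 3 TGFβ libraries lay above all 3 Ctrl libraries for 35 members in MI and 40 members in MII, against 32.8% and 34% of all genes tested. They lay below for 5 members in MI and 0 in MII, against 29.2% and 27.6% of all genes.

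Summed over the 31 subunits of the standard 26S particle, the level rose from 3623 ± 70.5 CPM (SD, n = 3) in MI Ctrl to 4470 ± 249 CPM in MI TGFβ. In MII it went from 2956 ± 50.5 to 3965 ± 66.1 CPM. Neither pair of groups overlapped. All 48 members together took 0.468% to 0.477% of the counts in MI Ctrl and 0.496% to 0.523% in MI TGFβ, and 0.413% to 0.420% and 0.483% to 0.492% in MII. In bulk RNA, fewer cells expressing a gene and less RNA per cell cannot be told apart.

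**Figure D1:**
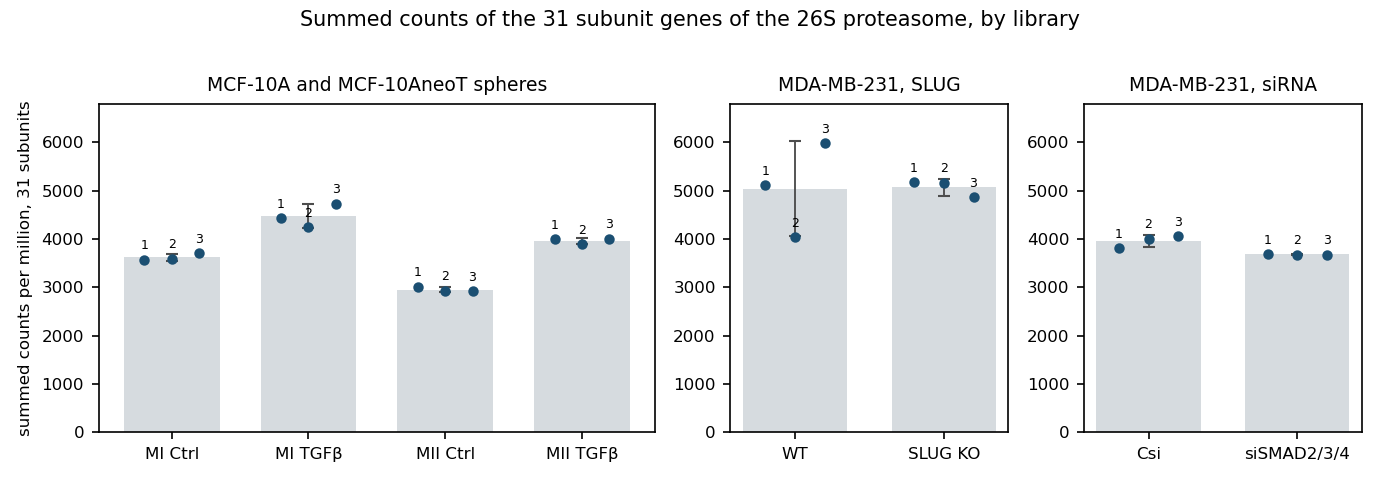
Summed CPM of the 31 genes of the standard 26S particle in each library (numbered points), with bars for the mean of a group and whiskers for its SD (n = 3). MI TGFβ (4470 CPM) and MII TGFβ (3965 CPM) stand above their unstimulated spheres (3623 and 2956 CPM), and the WT group is spread from 4038 to 5980 CPM.

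The size of this rise depended on scaling. In MII its direction did so too, on the per-kilobase scale with the same sum in every library that is given below. With library totals alone and no TMM factor, the median of all genes moved to -0.15 in both lines, and 14 members were called higher and 5 lower in MI (19.4% and 37.4% of all genes). In MII 34 were called higher and 1 lower (19.5% and 39.1%). The members' medians were then 0.05 in MI and 0.23 in MII, and no called member changed sign. The share of counts on mitochondrial genes fell at the same time, from 0.687% to 0.789% in MI Ctrl to 0.423% to 0.572% in MI TGFβ and from 1.42% to 1.66% to 1.02% to 1.18% in MII. The 100 genes with most counts took a larger share after TGFβ, 28.2% to 29.0% against 25.3% to 27.2% in MI and 23.4% to 23.95% against 21.6% to 22.0% in MII. The 8 genes listed as markers of other cell types summed to a median of 132 CPM and at most 134 CPM in MI Ctrl and to 104.6 to 112.6 CPM in MI TGFβ, and to 300.2 to 306 CPM and 276 to 287 CPM in MII, where PTPRC, CD3E, MS4A1 and CD68 were at or near 0. Of the 4 of them tested in MI, the endothelial cadherin CDH5 was called lower (20.9 to 22.3 CPM against 2.01 to 2.13 CPM). Of the 3 tested in MII, all were called lower: CDH5 by 0.61, PECAM1 by 0.17 and CD14 by 0.11 on the log2 scale. Their part in the result was not tested.

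Of the 14 genes of the standard 20S core, 12 rose in MI and 12 in MII. The α-ring gene PSMA7 had the smallest adjusted p of the core in both lines. It was counted at 229, 239 and 249 CPM in MI Ctrl and at 344, 328 and 386 CPM in MI TGFβ. In MII it went from 140, 137 and 143 CPM to 211, 200 and 213 CPM. All TGFβ libraries lay above all Ctrl libraries in each line, and the log2 fold-changes were 0.54 ± 0.06 (SE, adjusted p = 1.17e-07 by edgeR's quasi-likelihood test) and 0.54 ± 0.04 (adjusted p = 4.12e-17). All 4 non-catalytic β subunits rose in both lines, from 0.18 (PSMB4) to 0.39 (PSMB3) in MI and from 0.31 (PSMB4) to 0.54 (PSMB3) in MII on the log2 scale.

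The 3 standard catalytic subunits rose in each line by amounts that the test could not tell apart between lines. PSMB5 was at 142, 138 and 148 CPM in MI Ctrl and at 191, 193 and 202 CPM in MI TGFβ, and at 120, 116 and 110.6 CPM and then 150, 150 and 156 CPM in MII. PSMB6 went from 100.7, 111.6 and 115 CPM to 152, 143 and 156 CPM in MI, and from 89.5, 87.8 and 82.7 CPM to 115, 115 and 118.8 CPM in MII. PSMB7 went from 131.2, 138 and 137 CPM to 167, 161 and 174 CPM in MI, and from 176, 165 and 172 CPM to 206, 214 and 214 CPM in MII. No Ctrl library reached a TGFβ library of its line for any of the 3 genes. The log2 fold-changes were 0.43 ± 0.05, 0.44 ± 0.06 and 0.28 ± 0.05 in MI and 0.37 ± 0.04, 0.39 ± 0.05 and 0.27 ± 0.04 in MII (SE, edgeR's quasi-likelihood test, largest adjusted p 8.87e-05, for PSMB7 in MI).

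PSMA2 and PSMA6, also of the α ring, were the exceptions in the core. Both are uncertain: 29.7% and 14.1% of their exonic bases overlap other annotated genes, fragments over several genes were not counted, and they were counted at levels far below the other α subunits (0.566 to 4.18 CPM for PSMA2). PSMA2 was called lower in MI (log2 fold-change -0.94 ± 0.30, SE, edgeR adjusted p = 0.0117), and PSMA6 was called lower there too (-0.24 ± 0.09, adjusted p = 0.0255). These calls were lost in 3 and 7 of 16 alternative settings. Neither passed the test in MII. Overlap with other genes was not confined to members that fell. PSMA1 (26.7% of exonic bases), PSMD7 (31.2%) and PSMC1 (76.1%) were called higher in MII, and PSMC5 (15.3%) and PSMG4 (15.0%) in MI. Their counts are uncertain for the same reason.

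Of the 17 genes of the 19S regulatory particle, 12 rose in MI and 16 in MII. PSMD14, the deubiquitinase that removes ubiquitin chains from substrates, and PSMD1, a scaffold that binds ubiquitin receptors, had the smallest adjusted p values of the members in MII. PSMD14 was counted at 91.5, 85.1 and 91.2 CPM in MII Ctrl and at 144, 142 and 137 CPM in MII TGFβ, a log2 fold-change of 0.63 ± 0.04 (SE, edgeR adjusted p = 1.51e-17). PSMD1 went from 139, 133 and 135 CPM to 214, 201 and 208 CPM (0.58 ± 0.04, adjusted p = 2.70e-18). The stimulated and unstimulated libraries did not overlap for either gene. In MI the 2 genes rose by 0.41 ± 0.06 and 0.19 ± 0.05. Among the 6 ATPases, 5 rose in MII (all but PSMC5, 0.06) and 3 in MI (PSMC2, PSMC5 and PSMC6), with medians of 0.37 and 0.15. The calls of PSMC2 and PSMC6 in MI were each lost in 6 of 16 alternative settings.

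The assembly chaperone PSMG1, which pairs with PSMG2 to build the α ring, had the largest log2 fold-change of the members called in both lines. PSMG1 was counted at 26.3, 24.8 and 24.5 CPM in MI Ctrl and 41.9, 39.6 and 45.6 CPM in MI TGFβ, and at 17.3, 21.3 and 19.1 CPM and then 33.1, 32.5 and 29.2 CPM in MII. The groups did not overlap, and the log2 fold-changes were 0.73 ± 0.07 (SE, edgeR adjusted p = 2.80e-08) and 0.66 ± 0.08 (adjusted p = 2.25e-10). Of the 7 chaperones of core and base assembly, 4 rose in MI and 5 in MII, and PSMD9 passed in neither line. PSMD10, a chaperone of the 19S base also known as gankyrin, rose by 0.46 ± 0.07 and 0.47 ± 0.06.

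PSME4, the nuclear activator PA200, was the 1 member called lower in both lines. It was counted at 121.4, 124 and 124 CPM in MI Ctrl and at 113, 104.2 and 102.5 CPM in MI TGFβ, and at 134, 142 and 143 CPM and 138, 132 and 126 CPM in MII. The groups were apart in MI and overlapped in MII, where the call (log2 fold-change -0.11 ± 0.04, SE, edgeR adjusted p = 0.0216) was lost in 9 of 16 alternative settings. In MI the log2 fold-change was -0.23 ± 0.05 (adjusted p = 0.00123). PSME3, the other nuclear activator (PA28γ), rose by 0.27 ± 0.06 in MI and 0.26 ± 0.05 in MII, and PSMF1, the proteasome-binding protein PI31, by 0.15 ± 0.06 and 0.16 ± 0.06. The call of PSMF1 was lost in 6 of 16 alternative settings in MI, with an adjusted p of up to 0.825 in edgeR, and in 2 of 16 in MII.

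The MI and MII comparisons use separate libraries. In them 28 members were called higher in both lines, 2 in MI and not in MII (PSMC5 and PSMG4), and 11 in MII and not in MI. Of the 15462 genes tested in both lines, 20.5%, 9.55% and 10.6% were.

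**Figure D2:**
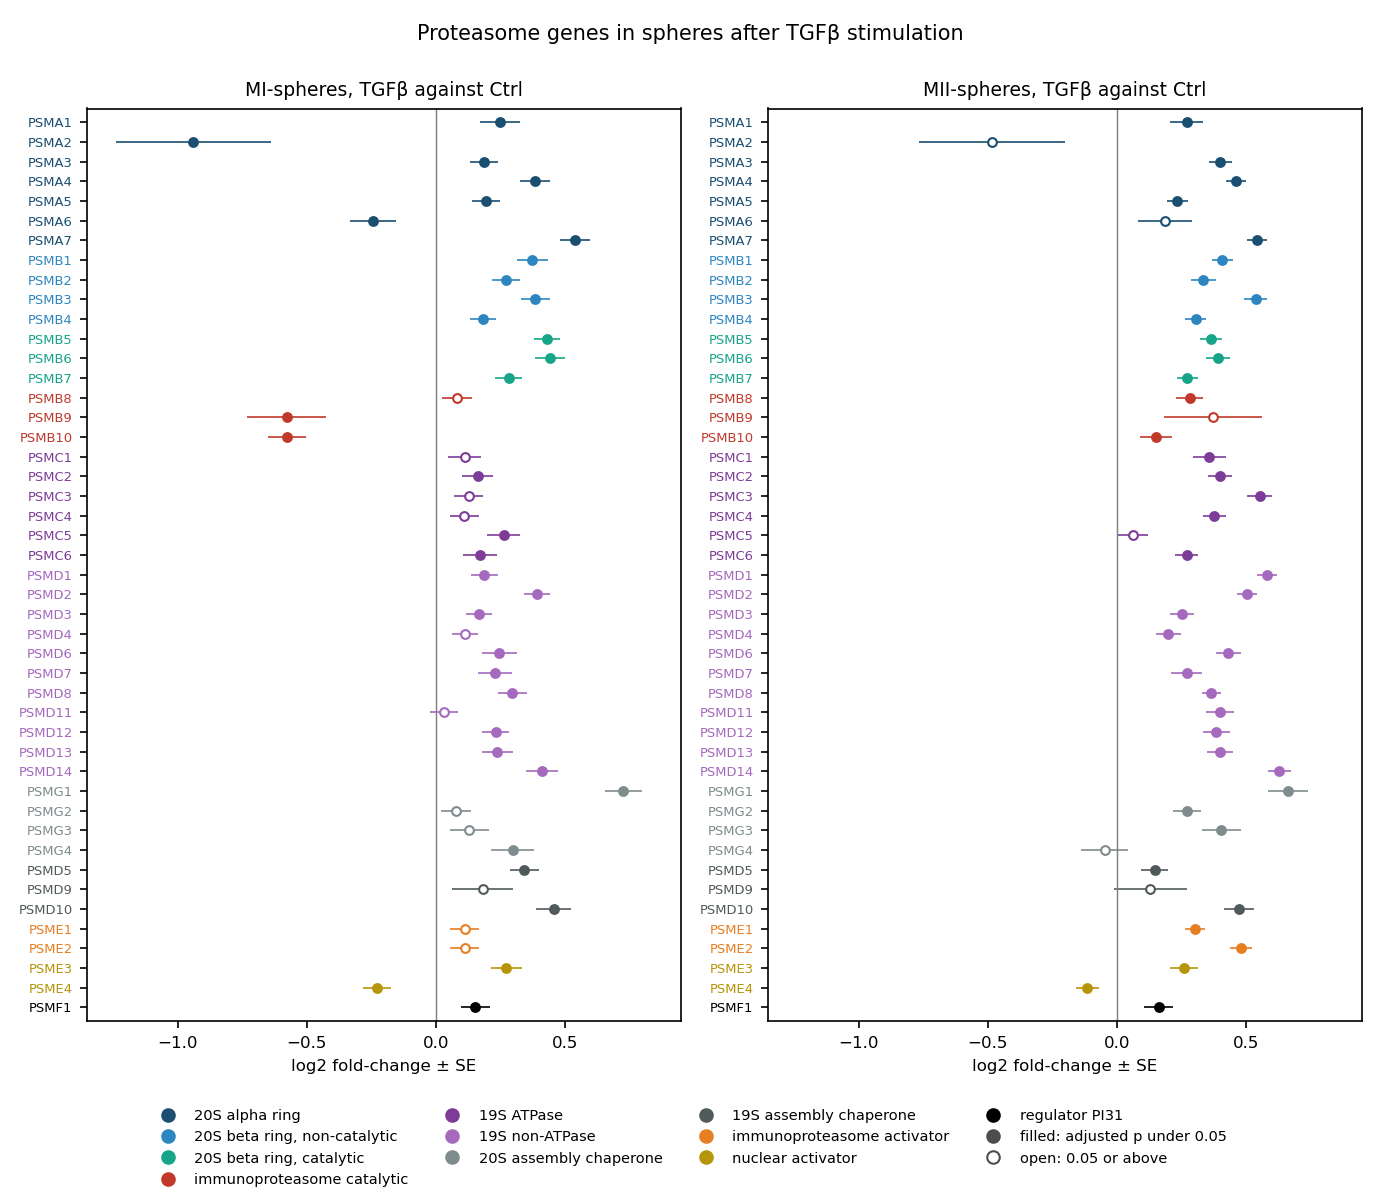
Log2 fold-change of TGFβ over Ctrl for each of the 46 tested members, ordered by role, in MI-spheres and MII-spheres, with bars of 1 SE from edgeR's quasi-likelihood fit. Filled points passed the adjusted p: 30 lie above 0 in MI and 39 in MII, while PSMB9 and PSMB10 lie at -0.58 in MI and PSME4 below 0 in both lines.

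The immunoproteasome genes behaved differently in the lines. Of these 5, none was called higher and 2 were called lower in MI, whereas 4 were called higher and none lower in MII. PSMB10 was counted at 46.4, 43.1 and 49.4 CPM in MI Ctrl and at 33.7, 28.5 and 32.6 CPM in MI TGFβ. In MII it was at 35.8, 36.4 and 36.6 CPM without and 41.4, 41.5 and 40.7 CPM with TGFβ. The groups were apart in each line, with the stimulated libraries below in MI (log2 fold-change -0.58 ± 0.07, SE, edgeR adjusted p = 1.28e-06) and above in MII (0.15 ± 0.06, adjusted p = 0.0320, lost in 6 of 16 alternative settings). In these counts 39.4% of the exonic bases of PSMB10 overlap another annotated gene, so its level is uncertain.

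PSMB9 had few counts in spheres. It was at 5.45, 5.61 and 5.06 CPM in MI Ctrl and at 4.32, 3.40 and 3.34 CPM in MI TGFβ, and at 2.94, 4.28 and 2.62 CPM and then 4.11, 5.11 and 4.30 CPM in MII. The groups were apart in MI (-0.58 ± 0.15 on the log2 scale, SE, edgeR adjusted p = 0.00296) and overlapped in MII (0.37 ± 0.19, adjusted p = 0.0854).

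PSMB8 was at 72.9, 74.7 and 72.6 CPM in MI Ctrl and 78.6, 74.1 and 84.0 CPM in MI TGFβ, which overlap. It went from 57.7, 58.8 and 57.9 CPM to 73.0, 70.4 and 73.6 CPM in MII (0.28 ± 0.05 on the log2 scale, SE, edgeR adjusted p = 8.69e-06), without overlap. Of its exonic bases 17.3% overlap PSMB9 or the antisense gene PSMB8-AS1, and reads of both strands were counted.

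The 2 PA28 genes changed in MII. PSME1 went from 190, 184 and 190 CPM to 239, 227 and 246 CPM there, and PSME2 from 118, 108.8 and 115 CPM to 170, 158 and 159 CPM. Stimulated libraries were above all unstimulated ones for both genes, with log2 fold-changes of 0.30 ± 0.04 (SE, edgeR adjusted p = 2.26e-09) and 0.48 ± 0.04 (adjusted p = 5.90e-14). In MI PSME1 was at 216 to 245 CPM in Ctrl and 241 to 267 CPM in TGFβ, and PSME2 at 100.4 to 109.2 CPM and 110.5 to 122 CPM, neither called (both 0.11 ± 0.06).

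**Figure D3:**
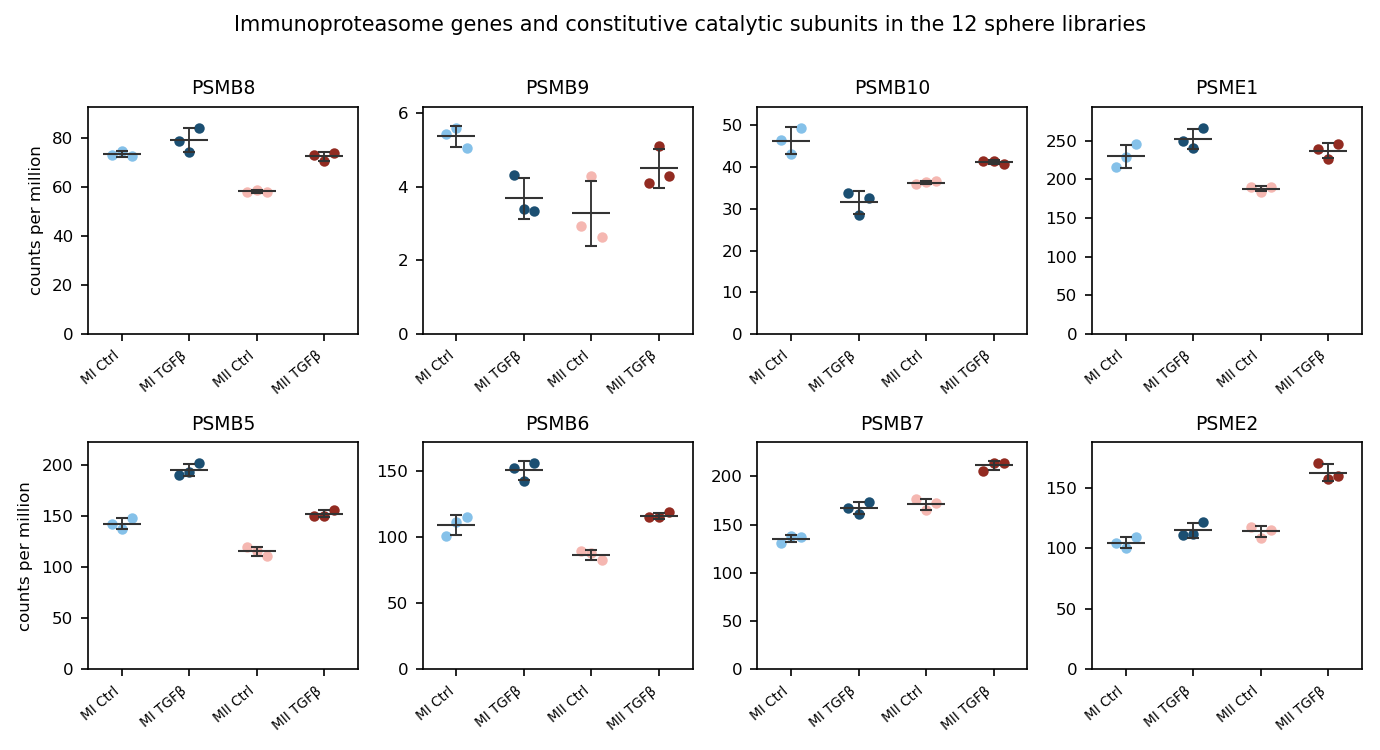
CPM of the 5 immunoproteasome genes and of PSMB5, PSMB6 and PSMB7 in each of the 12 sphere libraries (points), with the mean and SD of each group of 3. PSMB10 falls from 43.1 to 49.4 CPM to 28.5 to 33.7 CPM with TGFβ in MI and goes from 35.8 to 36.6 CPM to 40.7 to 41.5 CPM in MII.

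Whether a member responded differently in the lines was tested as an interaction term between line and stimulation, in 1 fit of the 12 sphere libraries. The value is the log2 fold-change in MII minus that in MI. Of the members 15 were called higher and 1 lower, against 12.6% and 9.75% of the 18591 genes tested, with a members' median of 0.12 beside 0.00 for all genes. None of these 16 differences passed an absolute value of 1, as 5.84% of all genes did. All 5 immunoproteasome genes were among the 15. PSMB10 had the smallest adjusted p, with a difference of 0.74 ± 0.10 (SE, edgeR's quasi-likelihood test, adjusted p = 1.53e-07), followed by PSMD1 (0.40 ± 0.07, adjusted p = 8.88e-06). PSMB9 had the largest difference, 0.96 ± 0.25 (adjusted p = 0.00319). PSMB8 (0.21 ± 0.08) and PSME1 (0.20 ± 0.07) were called at adjusted p values of 0.0475 and 0.0343, and these calls were lost in 16 and 14 of 21 alternative settings.

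Of the standard subunits, 10 were called higher in the interaction: the ATPases PSMC1, PSMC2, PSMC3 and PSMC4, the 19S subunits PSMD1, PSMD11 and PSMD14, the α subunits PSMA3 and PSMA6, and the chaperone PSMG3. None of the 3 standard catalytic subunits was, with differences from -0.06 ± 0.07 (PSMB5) to 0.00 ± 0.07 (PSMB7). PSMC3, an ATPase of the base, was counted at 75.5, 73.3 and 76.8 CPM in MII Ctrl and at 110.3, 110.8 and 117 CPM in MII TGFβ, and was not called in MI (log2 fold-change 0.13 ± 0.06, difference 0.43 ± 0.07, SE, edgeR adjusted p = 1.60e-05). PSMG4, a chaperone of α-ring assembly, was the 1 member called lower. It went from 16.3, 18.5 and 18.2 CPM to 20.8, 21.8 and 23.3 CPM in MI and from 16.5, 16.6 and 17 CPM to 14.5, 17.5 and 17.6 CPM in MII (-0.33 ± 0.12, adjusted p = 0.0460). The MI groups were apart and the MII groups overlapped.

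The number of interaction calls was not stable. DESeq2 called 9 members higher and none lower, against 12.8% and 9.64% of all genes. Leaving out 1 library gave 7 to 17 higher, with 7 to 9 without any of MI Ctrl 1, 2 or 3, MI TGFβ 1 or 2, MII Ctrl 2 or MII TGFβ 1, 2 or 3. The calls over all genes also moved. Without MII TGFβ 3, which gave 7 members, 1844 of 19528 genes were called higher. Without MI TGFβ 3, which gave 17 members, it was 2415 of 19330. Of the 16 calls, 6 held in every alternative setting.

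On the TMM scale, unstimulated MII-spheres had lower proteasome gene expression than unstimulated MI-spheres. Per kilobase and rescaled to the same sum in every library, the median standard subunit was instead higher, at 54.0 in MII Ctrl and 41.7 in MI Ctrl. Of the 46 members, 36 were called lower and 4 higher, where 32.5% and 31.7% of 17862 genes were. The members' median was -0.29 beside 0.02 for all genes. No called member passed an absolute log2 fold-change of 1, where 20.1% of all genes did. The MII libraries lay below all MI libraries for 36 members and above for 3, against 33.5% and 33.8% of all genes. This comparison shares its libraries with the TGFβ comparisons. PSMA7, described above, had a log2 fold-change of -0.78 ± 0.04 (SE, edgeR adjusted p = 8.21e-25). PSMF1 was at 104.9, 97.0 and 98.7 CPM in MI Ctrl and at 50.6, 55.3 and 52.3 CPM in MII Ctrl, with no overlap (-0.92 ± 0.05, adjusted p = 1.34e-23). All 11 non-ATPase subunits of the 19S particle were lower, from -0.13 (PSMD3, a call lost in 2 of 16 alternative settings) to -0.53 (PSMD6), as were all 4 non-catalytic β subunits and 5 of 6 ATPases.

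The 4 members called higher in unstimulated MII-spheres were PSMB7, PSMD5, PSME4 and PSME2. PSMB7, described above, was the 1 catalytic subunit among them (0.33 ± 0.04, SE, edgeR adjusted p = 1.51e-10), while PSMB5 and PSMB6 were lower (-0.31 ± 0.04 and -0.33 ± 0.05). PSMD5, a chaperone of the 19S base, was at 54.8, 55.2 and 53.2 CPM in MI Ctrl and 67.2, 69.7 and 64.6 CPM in MII Ctrl (0.30 ± 0.05, adjusted p = 8.17e-07), also without overlap. PSMB8, PSMB9 and PSMB10, at the levels given above, were each called lower (-0.34 ± 0.05, -0.66 ± 0.16 and -0.35 ± 0.06), and so was PSME1 (-0.29 ± 0.04). PSME2 was called higher (0.12 ± 0.04, adjusted p = 0.0162), a call lost in 6 of 16 alternative settings.

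Between stimulated spheres the gap on the TMM scale was narrower. In MII TGFβ 24 members were called lower and 7 higher than in MI TGFβ, against 31.6% and 31.1% of 15878 genes. The members' median was -0.14 beside 0.00, and none passed an absolute log2 fold-change of 1 (19.8% of all genes). PSMF1 (118, 115 and 107.5 CPM against 60.3, 59.5 and 62.1 CPM) and PSMA7 were again lowest by adjusted p, at -0.90 ± 0.06 (SE, edgeR adjusted p = 3.78e-12) and -0.76 ± 0.05 (adjusted p = 1.47e-11). PSME2 (0.51 ± 0.05, adjusted p = 1.50e-08), PSMB7 (0.34 ± 0.05, adjusted p = 1.56e-06) and PSMB10 (0.39 ± 0.07) were called higher, together with PSME4, PSMD1, PSMD11 and PSMA3. The calls of PSMD1, PSMD11 and PSMA3 were lost in 3, 4 and 3 of 16 alternative settings. No immunoproteasome gene was called lower.

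Library totals alone moved the median of all genes to 0.11 between unstimulated and 0.09 between stimulated spheres. The calls were then 33 lower and 4 higher (26.6% and 37.3% of all genes) without TGFβ, and 15 lower and 8 higher (26.6% and 35.8%) with it. PECAM1 was at 87.6 to 104.4 CPM in MII-spheres and 8.66 to 11.0 CPM in MI-spheres, and CD14 at 170 to 191 CPM and 91.8 to 103.5 CPM. The 8 genes listed as markers of other cell types summed to 104.6 to 134 CPM in MI and 276 to 306 CPM in MII, with PTPRC, CD3E, MS4A1 and CD68 at or near 0. Their part in the result was not tested.

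The ratio of each inducible catalytic subunit to its standard counterpart was computed from per-length levels in each library, as a description with no test. PSMB10 over PSMB7 was 0.375 in MI Ctrl and 0.207 in MI TGFβ, and 0.233 and 0.215 in MII. PSMB9 over PSMB6 was 0.0214 in MI Ctrl and 0.0106 in MI TGFβ, and 0.0161 and 0.0167 in MII. PSMB8 over PSMB5 was 0.229, 0.180, 0.224 and 0.211 in the same order. So each inducible gene stood below its counterpart in every sphere group, and in MI the libraries of each of the 3 ratios fell without overlap after TGFβ. In MII only PSMB10 over PSMB7 did so, by little: log2 ratios of -2.16 to -2.043 in Ctrl and -2.256 to -2.177 with TGFβ. The sizes depend on the exon length used: with canonical transcript lengths PSMB8 over PSMB5 was 0.375 to 0.478 in the sphere groups, PSMB9 over PSMB6 0.0197 to 0.0399 and PSMB10 over PSMB7 0.19 to 0.344.

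In MDA-MB-231 the order of the ratios was different. PSMB9 over PSMB6 was 0.179 in Csi, 0.158 in siSMAD2/3/4, 0.0704 in SLUG KO and 0.0762 in WT, all above the sphere groups. PSMB10 over PSMB7 was 0.140, 0.109, 0.0854 and 0.0801, all below them. PSMB8 over PSMB5 was 0.385, 0.369, 0.193 and 0.171. The Csi and siSMAD2/3/4 libraries come from another sequencing batch than the WT and SLUG KO libraries, so batch and treatment cannot be told apart between those pairs.

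Levels between subunits were compared per kilobase of exon and within a library, as the ratio to the median of the 31 standard subunits of that library. PSMA7 was the highest subunit in 7 of the 8 groups, and stood at 4.29 to 7.26 times that median over all 8, while PSMB7 was highest in MII Ctrl (5.15 times). The order depends on the length used. With canonical transcript lengths PSMA7 was highest in 5 of the 8 groups, at 3.04 to 4.93 times the median over all 8, and PSMB4, a non-catalytic β subunit, in MI Ctrl, MII Ctrl and MII TGFβ (3.72 to 4.04 times). PSMB7 was then second in MII Ctrl (3.63 times). PSMA2 and PSMA6, the 2 genes counted far below the other α subunits, were lowest in every group by exon length. With canonical lengths PSMC1 took the place of PSMA6 in the 4 sphere groups. Between 14 and 18 of the 31 subunits lay within 2-fold of the median with canonical lengths, and between 15 and 18 by exon length. Among the inducible genes, PSME1 stood at 2.61 to 5.69 times that median, PSMB8 at 0.541 to 0.928 times, PSMB10 at 0.262 to 1.25 times and PSMB9 at 0.0402 to 0.368 times. With canonical lengths these were 1.86 to 4.07, 0.583 to 1.08, 0.152 to 0.777 and 0.0490 to 0.526 times.

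**Figure D4:**
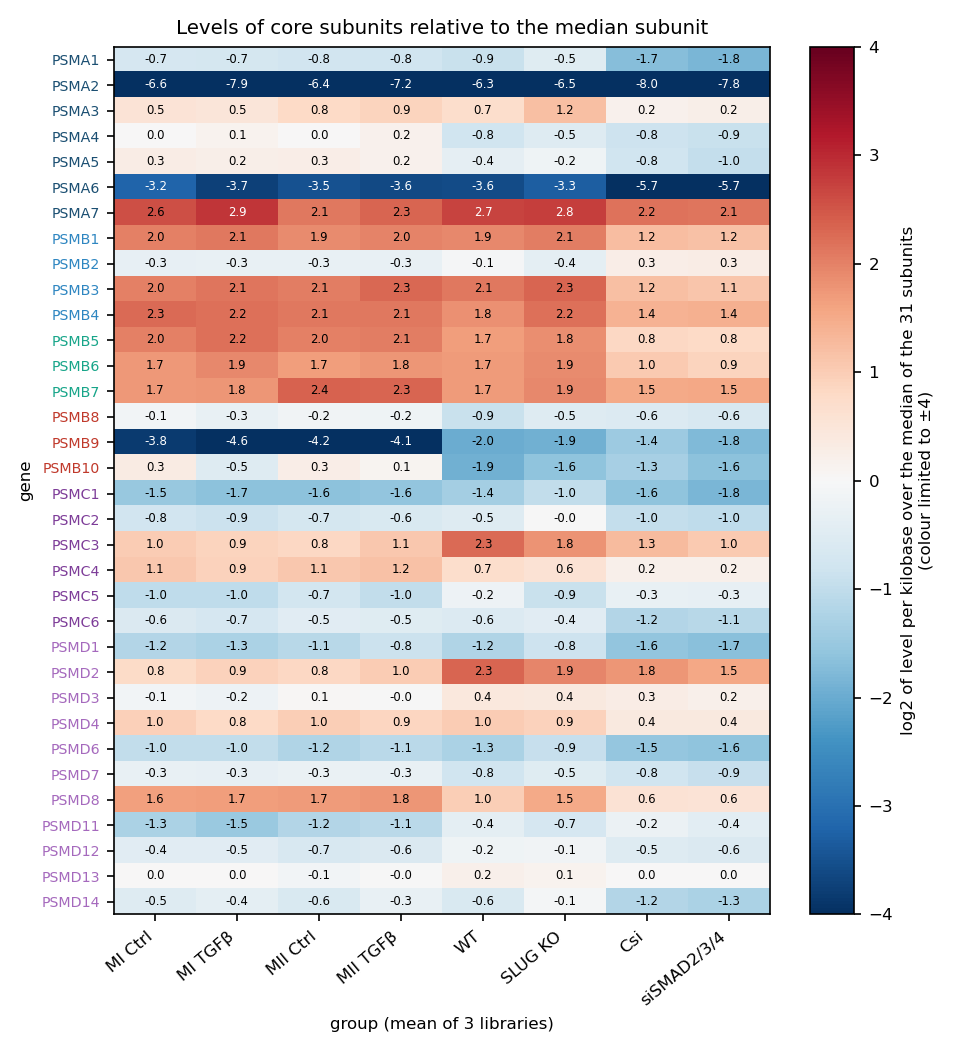
Heat map of the mean per-kilobase level (3 libraries) of the 31 standard 26S subunits and of PSMB8, PSMB9 and PSMB10 in the 8 groups, as log2 of the ratio to the median of the 31 subunits, with the colour limited to 4 on either side of 0. By exon length PSMA7, at 4.29 to 7.26 times the median, is in red in every group, and PSMA2 and PSMA6 are in dark blue.

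Between groups, the per-length level of the whole particle depended on the scale. Rescaled to the same sum in every library, the median subunit was at 41.7 in MI Ctrl, 45.6 in MI TGFβ, 54.0 in MII Ctrl and 49.7 in MII TGFβ. As TMM-scaled CPM per kilobase it was 23.3, 29.6, 18.9 and 24.03, so MII Ctrl against MI Ctrl, MII TGFβ against MI TGFβ, MII Ctrl against MI TGFβ and MII TGFβ against MII Ctrl turned over. Values of each gene between groups are therefore given as TMM-scaled CPM with their test. Same-sum values per kilobase of single genes are given, untested, only where the order of the groups by scale is described.

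Most subunits did not differ detectably between cells labelled SLUG KO and WT cells. Of 46 members 1 was called lower and none higher, against 1.89% and 1.45% of 17428 genes. By edgeR 4 members were lower and none higher at an unadjusted p under 0.05, against 11.1% and 8% of all genes. DESeq2 also called 1 lower and none higher, against 2.84% and 2.39%. In WT replicate 2, 34 members lay below both other WT libraries and 10 above both. Relative to the mean of WT 1 and WT 3, its members ranged from 0.256 (PSMD10) to 1.54 (PSMD9), with a median of 0.640. Its mitochondrial share was 2.40% of counts, against 0.812% and 0.657%.

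PSME4 was the member called. It was counted at 124, 142 and 96.7 CPM in WT and at 46.0, 57.3 and 51.1 CPM in the libraries labelled SLUG KO, which lay below every WT library. The log2 fold-change was -1.23 ± 0.20 (SE, edgeR's quasi-likelihood test, adjusted p = 0.0219), the 1 call over the members and main comparisons that passed an absolute log2 fold-change of 1 (3.05% of all genes here). The call held in 9 of 15 alternative settings, with adjusted p up to 0.165, and PSME4 kept its direction in all 15. Without WT replicate 2 it was -1.09 ± 0.11 (adjusted p = 2.76e-06), still the 1 member past that size (7.42% of all genes).

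Without WT replicate 2, an alternative that was chosen after that library was seen to stand apart, 10 members were called lower and none higher, where 14.4% and 16.8% of 17909 genes were. At an unadjusted p under 0.05 edgeR gave 12 lower and 2 higher, against 19.3% and 21.4%. The members' median turned from 0.11 to -0.07, beside -0.05 and -0.01 for all genes. Besides PSME4, the largest falls were those of PSMB2, a β-ring subunit (-0.51 ± 0.09, SE, edgeR adjusted p = 0.000474), and of the ATPases PSMC5 (-0.49 ± 0.10, adjusted p = 0.00207) and PSMC3 (-0.43 ± 0.09, adjusted p = 0.00252). PSMB2 was at 125 and 143 CPM in WT 1 and 3, at 104.8 CPM in WT 2, and at 98.2, 89.9 and 92.0 CPM in the libraries labelled SLUG KO. The remaining 6 were PSME2, PSMD2, PSMC6, PSMD12, PSMD11 and PSME3, from -0.40 to -0.25. PSMB5, PSMB6, PSMB7, PSMB8, PSMB9, PSMB10 and PSME1 were called in neither fit. Summed over the 31 standard subunits the libraries labelled SLUG KO held 5068 ± 177 CPM (SD, n = 3), within the WT range of 4038 to 5980 CPM.

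**Figure D5:**
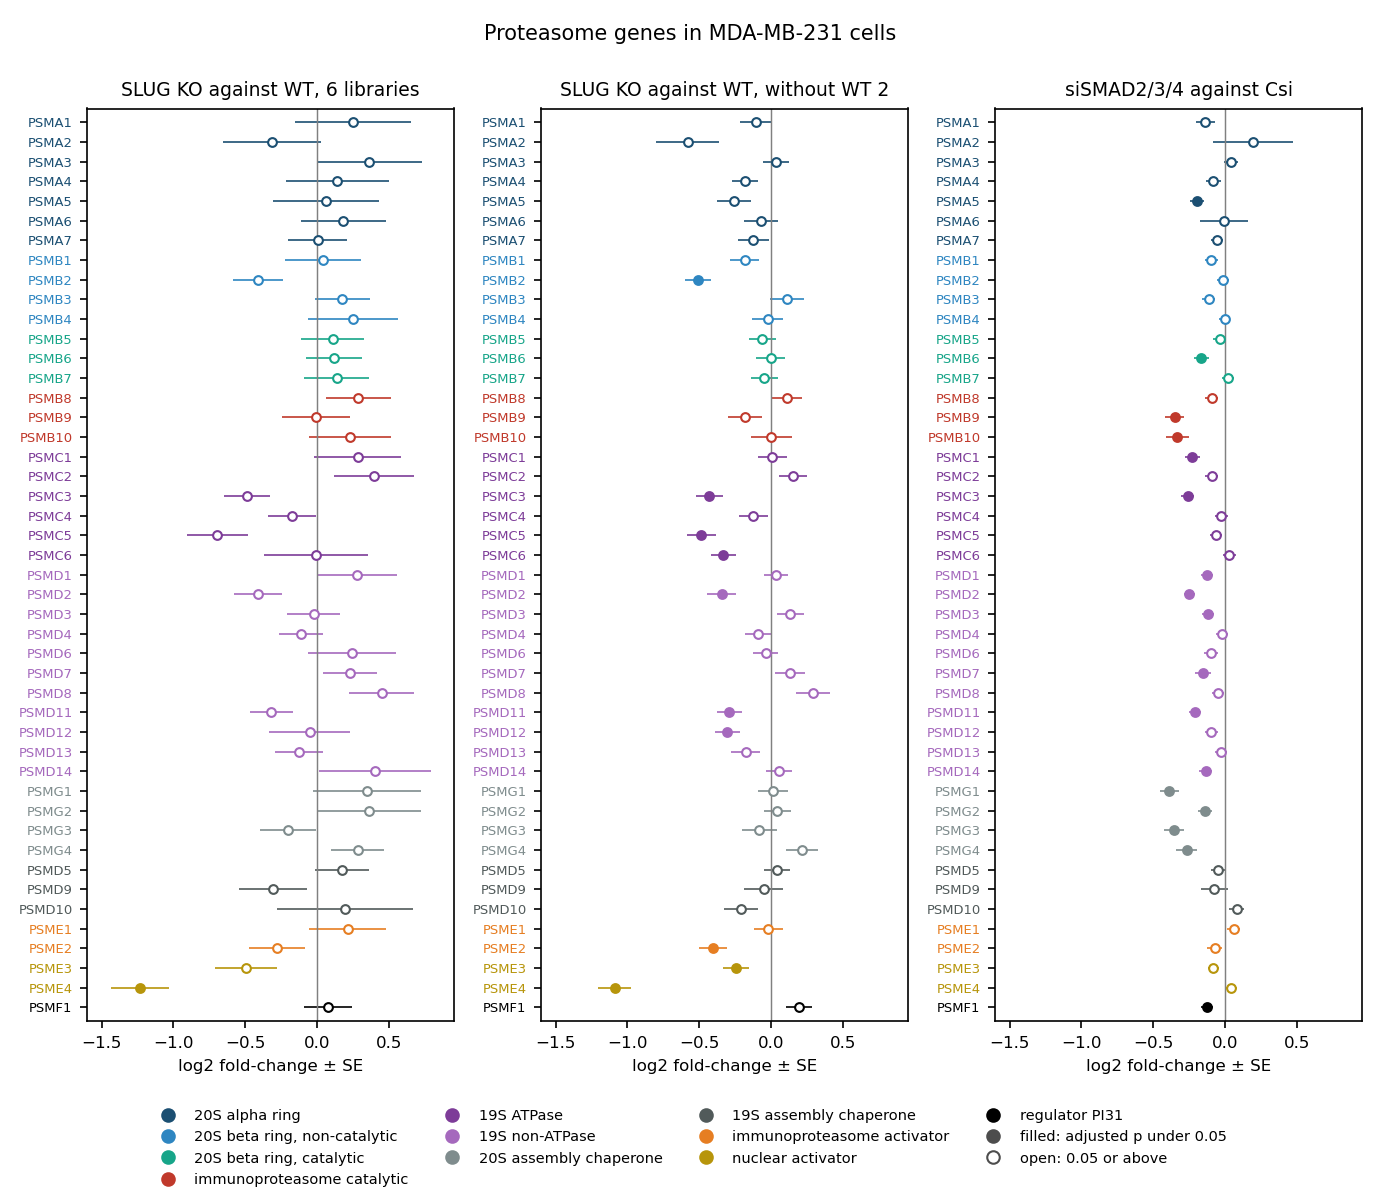
Log2 fold-change of each of the 46 tested members in MDA-MB-231 with bars of 1 SE and filled points where the adjusted p was under 0.05, for SLUG KO against WT with and without WT replicate 2 and for siSMAD2/3/4 against Csi. PSME4 is at -1.23 and -1.09 in SLUG KO, and the siSMAD2/3/4 values lie between -0.39 and 0.19.

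Knockdown of SMAD2, SMAD3 and SMAD4 was followed by small falls. Of 46 members 17 were called lower and none higher, against 19.7% and 16.3% of 17696 genes. At an unadjusted p under 0.05 edgeR gave 23 lower and none higher, against 22.9% and 20.5% of all genes, and DESeq2 called 16 lower and none higher, against 18.4% and 14.5%. The members' median was -0.09 beside 0.00 for all genes, and none passed an absolute log2 fold-change of 1 (1.9% of all genes). The summed level of the 31 standard subunits was 3959 ± 133 CPM (SD, n = 3) in Csi and 3681 ± 2.65 CPM in siSMAD2/3/4. SMAD3 was lowered less than the other targets, from 262 to 278 CPM to 162 to 172 CPM.

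PSMD2, the scaffold of the 19S base, had the smallest adjusted p. It was at 507, 501 and 525 CPM in Csi and at 437, 432 and 422 CPM in siSMAD2/3/4 (log2 fold-change -0.25 ± 0.04, SE, edgeR adjusted p = 2.73e-06). PSMG1 was at 30.2, 33.1 and 34.1 CPM and then 24.2, 24.3 and 25.9 CPM (-0.39 ± 0.07, adjusted p = 1.63e-05). Neither gene's groups overlapped. Of the 17 genes of the 19S particle 8 were lower, of the 14 standard core genes 2, and of the 7 chaperones 4.

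Of the inducible genes, PSMB9 and PSMB10 were lower. PSMB9 was at 34.7, 37.2 and 40.6 CPM in Csi and 28.9, 31.4 and 28.0 CPM in siSMAD2/3/4 (-0.35 ± 0.07 on the log2 scale, SE, edgeR adjusted p = 7.01e-05). PSMB10 was at 19.9, 19.2 and 19.9 CPM and then 16.2, 16.8 and 13.7 CPM (-0.33 ± 0.08, adjusted p = 0.00124). The groups did not overlap for either. PSMB6 was the 1 standard catalytic subunit called lower (82.2, 90.2 and 99.8 CPM against 79.9, 81.3 and 81.6 CPM), a call at adjusted p = 0.0126 that was lost in 3 of 16 alternative settings.

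For siSMAD2/3/4 replicates 1 and 2 the file names give another flow cell than for the other 4 libraries, while the labels give 1 flow cell for all 6. With flow cell as a term 11 members were called lower, and without Csi replicate 3 there were 10. The shares of all genes called in these fits are not given here, so these counts cannot be set against them. Mitochondrial genes took 3.81% to 4.95% of counts in Csi and 4.87% to 6.02% in siSMAD2/3/4, and their part in the result was not tested.

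Genes that work with the proteasome were examined in lists. Over all genes tested, 28.7% were called higher and 27.4% lower with TGFβ in MI, and 29.9% and 27.6% in MII. The lists are small, and counts near such shares are not read as results about a list. Among 15 partners (assembly factors, ubiquitin receptors, shuttles and associated enzymes), 8 rose and 1 fell with TGFβ in MI, and 9 rose and 1 fell in MII. POMP, which matures the 20S core, rose by 0.40 ± 0.06 and 0.48 ± 0.04, and SEM1, a small 19S subunit without a PSM symbol, by 0.43 ± 0.06 and 0.31 ± 0.06 (SE, log2 scale). Of 6 genes that supply or activate ubiquitin, 5 rose in each line and none fell, and among them UBA1, the main ubiquitin-activating enzyme (0.33 ± 0.06 in MI and 0.36 ± 0.04 in MII).

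The NFE2L1 route to proteasome gene transcription (7 genes) was mixed. In MI 2 rose and 4 fell, and in MII 3 rose and 1 fell. NFE2L1 itself was lower in MI (-0.18 ± 0.05) and higher in MII (0.13 ± 0.04), with a difference called in the interaction (0.33 ± 0.06, edgeR adjusted p = 0.000124). VCP, the ATPase that extracts NFE2L1 from the endoplasmic reticulum, rose in both lines (0.21 ± 0.05 and 0.44 ± 0.03). In cells labelled SLUG KO, 1.45% of all genes were called higher and 1.89% lower. The 1 gene of this list called there was DDI2, the protease that activates NFE2L1, at -0.91 ± 0.16 (SE, edgeR adjusted p = 0.0269). Of 10 proteotoxic stress genes, 4 rose and 4 fell in each line, with SQSTM1, the ubiquitin-binding autophagy receptor p62, at -1.54 ± 0.05 in MI and -0.54 ± 0.04 in MII.

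Genes of antigen processing and of the interferon response differed between the lines on the side that the immunoproteasome genes did. Over all genes, 12.6% were called higher in the interaction and 9.75% lower, beside the shares with TGFβ given above. Of 12 antigen-processing genes 2 rose and 7 fell in MI, 9 rose and none fell in MII, and 10 were called higher in the interaction, led by HLA-B (0.64 ± 0.07), TAP2 (0.94 ± 0.12) and B2M (0.52 ± 0.07, SE). Of 15 interferon-response genes none rose and 6 fell in MI, 4 rose and 6 fell in MII, and 8 were called higher in the interaction. The 4 of 15 that rose in MII are near the 29.9% of all genes that did. IRF1, a transcription factor of interferon-γ signalling, fell by 1.34 ± 0.06 in MI and by 0.45 ± 0.05 in MII on the log2 scale, with a difference of 0.90 ± 0.08 (edgeR adjusted p = 1.59e-11). With siSMAD2/3/4, where 16.3% of all genes were called higher and 19.7% lower, 8 interferon-response genes rose and 2 fell. PSMB9 and PSMB10 were lower there, and IFIT1 rose by 0.76 ± 0.05. Of the partners 1 rose and 6 fell in that comparison, with USP14, a deubiquitinase on the 19S particle, at -0.52 ± 0.04 (edgeR adjusted p = 6.56e-12). Of the other lists, 6 proteotoxic stress genes fell and none rose with siSMAD2/3/4, and 2 antigen-processing genes rose and 4 fell.

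Between the unstimulated lines, 31.7% of all genes were called higher and 32.5% lower in MII-spheres. There 6 of the 15 partners were higher and 7 lower, among them ADRM1, the ubiquitin receptor RPN13 (-0.67 ± 0.06, SE), and SEM1 (-0.58 ± 0.05). No ubiquitin supply gene was higher and 5 were lower. NFE2L1 was lower (-0.58 ± 0.04, edgeR adjusted p = 2.00e-20), with 3 genes of its list higher and 3 lower. Of the antigen-processing genes 7 were lower and none higher, and of the interferon-response genes 11 were lower and 3 higher. In the libraries labelled SLUG KO, besides DDI2, the interferon-response gene IFI27 was called higher (1.35 ± 0.26, edgeR adjusted p = 0.0406).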

How the data were processed

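The authors trimmed reads of stranded, ribosomal RNA-depleted libraries with Trimmomatic, aligned them with STAR to GRCh38.p13, and counted fragments on GENCODE v38 exons with featureCounts (Subread 2.0.0), requiring both ends mapped and a mapping quality of at least 30, ignoring strand and leaving out fragments over several genes. The deposited values are raw counts per gene without normalization, in 24 libraries; the 16 ATAC-seq samples of the 40 were not analysed here. Symbols came from GENCODE v44 (60463 genes, 99.6%).

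Counts were filtered with filterByExpr, scaled with TMM and tested with edgeR 4.0.16 (quasi-likelihood test, R 4.3.3, limma 3.58.1) on the 6 libraries of each comparison, and on 12 for the interaction, with Benjamini-Hochberg adjustment across the whole table. Scripts used pandas 2.3.3 and matplotlib 3.10.9. Same-numbered libraries were not paired: the labels name no pairing, and deviations from group means correlated at -0.185 to 0.0517. Precision is limited by 3 libraries per group and by depths of 14124688 to 38406952 counts. The tests were also run on simulated data. Alternatives were DESeq2 1.42.0, other scalings and filters, length and GC corrections, a replicate block, flow cell as a term and leaving out each library.

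Members and lists were chosen with earlier results of these data known. Values in every library are given, by rule, for the catalytic subunits, PSME1 and PSME2 where called, and per comparison and direction, for the 2 called members of lowest adjusted p. PSMA2, PSMA6, PSMC3, PSMD10 and PSMB2 were named beyond it, after their values were seen. Some genes of the lists are not reported here.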

Additional observations from a re-analysis of the deposited data

Results flagged for a closer look

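In 16 members the response to TGFβ differed between MII- and MI-spheres in the test of the interaction (log2 fold-change in MII minus that in MI, edgeR's quasi-likelihood test, adjusted p under 0.05). The immunoproteasome genes were PSMB9 (0.96), PSMB10 (0.74), PSME2 (0.38), PSMB8 (0.21) and PSME1 (0.20). The standard core and its chaperones gave PSMA6 (0.44), PSMG3 (0.28), PSMA3 (0.22) and PSMG4 (-0.33). The 19S particle gave PSMC3 (0.43), PSMD1 (0.40), PSMD11 (0.38), PSMC4 (0.28), PSMC1 (0.25), PSMC2 (0.25) and PSMD14 (0.22). Of these, PSMB10 and PSMC1 overlap other genes over 39.4% and 76.1% of their exonic bases. PSMB8, PSMG4 and PSMA6 do so over 17.3%, 15.0% and 14.1%, and all these counts are uncertain. Of the 16 differences, 6 passed the test in every alternative setting. The calls lost in most of the 21 settings were those of PSMG3 (19), PSMB8 (16), PSMC1 (15), PSME1 (14), PSMD14 (13) and PSMC2 (11).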

How the results depend on the processing

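No member's value changed sign in a called result in any alternative fit. Per kilobase of exon and rescaled to the same sum, the order of the groups turned over for most members called higher with TGFβ in MII-spheres. It also did so for most members called lower in MII Ctrl than in MI Ctrl, such as PSMB5 (216.6 against 169). PSMA7, PSMF1 and PSMB9 kept their order in that comparison. PSMB7, called higher in MII-spheres, was at 277.6 in MII Ctrl and 248.6 in MII TGFβ on that scale. PSMA7 kept its direction there, at 231.5 and 249.8. Counts are of members called, out of 46, followed by the calls over all genes. For siSMAD2/3/4 the calls over all genes in the same setting are not given. In MI-spheres the 30 higher fell to 14 with library totals only, and the 5 lower to 3 with DESeq2 and to 3 to 5 without 1 library (3 without MI Ctrl 3 or MI TGFβ 1). Over all genes, 3271 of 16863 were called higher with library totals only, against 4833 in the main fit. DESeq2 called 3176 of 21670 lower, against 4613 of 16863 in the main fit. It was 4029 of 17673 without MI Ctrl 3 and 4140 of 18060 without MI TGFβ 1. The 1 lower in MII-spheres was 0 with DESeq2, without a low-count filter, with the length correction alone or with the replicate block, and in the fit of all 12 sphere libraries, and 0 to 1 without 1 library. Over all genes these fits called 3049 to 4374 lower, against 4532 of 16396 in the main fit. The interaction's 15 higher were 9 with DESeq2, 8 without a filter and 7 to 17 without 1 library. Over all genes 2013 of 15763 were called higher with DESeq2, 1985 of 46249 without a filter and 1844 to 2415 without 1 library. The main fit called 2344 of 18591 higher. Its 1 lower was 0 with DESeq2 or no filter, 2 with at least 10 counts in every library and 0 to 3 without 1 library. Over all genes 1519 were called lower with DESeq2 and 1526 without a filter, against 1812 in the main fit. It was 1831 of 13478 with at least 10 counts and 1581 to 2378 without 1 library. Between stimulated lines, the 7 higher were 4 without a filter and the 24 lower 15 with library totals only. Over all genes 4772 of 42438 were called higher without a filter, against 4937 of 15878 in the main fit. With library totals only 4223 were called lower, against 5013 in the main fit. For SLUG KO the 1 lower was 3 with the GC correction and 0 to 10 without 1 library: 10 without WT 2, and 0 without WT 1 or any 1 of the libraries labelled SLUG KO. The calls over all genes moved the same way. With the GC correction 970 were called lower, against 329 of 17428 in the main fit. It was 2579 without WT 2, 116 without WT 1 and 79 to 89 without 1 of the libraries labelled SLUG KO. For siSMAD2/3/4 the 0 higher by edgeR were 3 with the GC correction, and the 17 lower were 11 with flow cell as a term and 10 to 21 without 1 library (10 without Csi 3). The cause was not tested in these cases.

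Replicate numbers do not pair the libraries. The replicate block gave 33 higher and 5 lower in MI, 40 and 1 in MII, 14 and 1 in the interaction, 4 and 36 and then 7 and 23 between lines, 0 and 0 for SLUG KO and 0 and 17 for siSMAD2/3/4. Over all genes it gave 5050 higher and 4783 lower in MI, 4785 and 4347 in MII, and 2401 and 1872 in the interaction. Between lines it gave 5548 and 5749 without TGFβ and 4902 and 4973 with it. For SLUG KO it gave 87 and 168 of 17428. For siSMAD2/3/4 they are not given. The block with the length correction also gave 0 lower for SLUG KO, where 124 of 17428 genes were called lower.

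The median per-kilobase level of the 26S subunits, rescaled to the same sum in every library, was 41.7 in MI Ctrl, 45.6 in MI TGFβ, 54.0 in MII Ctrl, 49.7 in MII TGFβ, 88.2 in SLUG KO, 101.3 in WT, 122 in Csi and 118 in siSMAD2/3/4. TMM-scaled it was 23.3, 29.6, 18.9, 24, 25.9, 26.7, 30.3 and 29.8 in that order. On the same-sum scale with canonical transcript lengths, chosen after seeing the data, it was 85.6, 87.8, 93.7, 94.9, 169, 182, 174 and 162, which among the spheres turned MII TGFβ against MII Ctrl and left each MII group above its MI group.

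Of the members called, 17 of 35 in MI, 34 of 40 in MII, 36 of 40 and 19 of 31 between lines without and with TGFβ, 0 of 1 for SLUG KO and 9 of 17 for siSMAD2/3/4 passed under every alternative.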
